A study of Homo sapiens with 4 samples.

Results

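Cells carry sensors that recognise RNA or DNA where it should not be, in the cytosol. RIG-I and MDA5 bind double-stranded RNA and signal through MAVS on mitochondria, while cGAS, once it binds DNA, makes a cyclic dinucleotide that STING reads, and both routes lead to interferon genes. Many of these sensors are themselves interferon-stimulated genes, in B cells as in most other cell types.

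The 10 genes described here are RIGI (DDX58), IFIH1, DHX58, TRIM25, MAVS, EIF2AK2, ZBP1, IFI16, CGAS (MB21D1) and STING1 (TMEM173). They were chosen by name out of 19088 genes on the array, with earlier results of these data known. Each had 1 probe set, which the deposited table lists under DDX58, VISA (for MAVS), C6orf150 (for CGAS) and TMEM173 (for STING1) or under the current name. RNA came from clone AB7 of DG75, a human Burkitt's lymphoma line, and every library is of this single clone. Per the labels it is Bcl6-/- and carries tetBCL6-HA, a tagged BCL6 under tetracycline control, and this holds for the control library too. There was 1 library grown without doxycycline (0 h) and 1 library each from cells given 1 µg/ml doxycycline for 16, 48 and 96 h, and no untreated library at a later time, so time in culture and time with the drug cannot be told apart. Values are log2 intensities, differences are log2 differences between libraries, and a single time has no replicate.

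BCL6, the targeted gene, which encodes a repressor of transcription, was 11.10 in the library labelled 0 h and 10.58, 10.25 and 10.50 in those labelled 16, 48 and 96 h. It was thus highest where the label says no doxycycline, so times below are names of labelled libraries and no direction is drawn from BCL6. Of the 8 B cell markers on the array 7 lay above the filter on low values, a mean log2 of 5.18, and MS4A1 (CD20) lay below it. Above the filter were also 3 of 10 T and NK cell markers (CD3E, CD3G and NKG7), 2 of 8 monocyte markers (FCN1 and MARCO), 0 of 8 dendritic cell markers and 5 of 10 stromal and epithelial markers, while CD3D, CD14, LYZ and CSF1R were below it. The summed linear intensity of the T and NK list was 508, 518, 603 and 587 at 0, 16, 48 and 96 h, that of the monocyte list 279, 251, 272 and 266, and that of the dendritic list 153, 152, 158 and 150. The stromal and epithelial list summed to 353, 312, 321 and 329, and the B cell list to 4342, 4604, 5093 and 5872. Of the 8 B cell markers, 4 were at least 1.5-fold higher at 96 h than at 0 h and 0 lower, where 3.4% and 2.19% of all genes did so. MS4A1, below the filter, was among the 4, at 1.57-fold. The median difference of the 8 was 0.61, close to the 0.63 of the sensor genes. At 96 h 7 of the 8 were higher than at 0 h, while CD79A was lower, by -0.38, -0.37 and -0.51 at 16, 48 and 96 h. PAX5, a transcription factor of B cell identity, rose by 0.88 (limma adjusted p = 0.0335), a call that ended under 5 of 12 alternatives. The part of these markers in the results below was not tested.

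The sequences upstream of the sensor genes are shown because 5 of the 6 genes with an entry carry repeats of GAAA there. These are RIGI, IFIH1, EIF2AK2 and IFI16, which differed at all 3 times, and TRIM25, which stayed within 1.5-fold. Such a repeat with 2 bases between is the core of the interferon-stimulated response element, and of these genes only IFIH1 and EIF2AK2 have that spacing. The sequences are from RefSeq on GRCh38.p14, whose promoter table covers 250 bases before to 50 after each annotated start and matched 6 of the 10 genes. Matches to GAAANNGAAA or GAAANGAAA on either strand are in capitals, and the spacing of 1 base was added after the sequences had been read. RIGI is shown at chr9:32526346-32526445 (minus strand), IFIH1 at chr2:162318686-162318853 (minus strand), EIF2AK2 at chr2:37156967-37157066 (minus strand), IFI16 at chr1:159009807-159009906 (plus strand, the second of 2 listed starts), TRIM25 at chr17:56914034-56914133 (minus strand) and MAVS at chr20:3846734-3846833 (plus strand).
RIGI: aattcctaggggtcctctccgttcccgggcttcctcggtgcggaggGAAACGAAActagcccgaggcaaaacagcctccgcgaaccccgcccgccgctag
IFIH1: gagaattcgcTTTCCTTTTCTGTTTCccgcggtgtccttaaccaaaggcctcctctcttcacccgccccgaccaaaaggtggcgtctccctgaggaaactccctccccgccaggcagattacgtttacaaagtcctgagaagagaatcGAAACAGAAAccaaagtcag
EIF2AK2: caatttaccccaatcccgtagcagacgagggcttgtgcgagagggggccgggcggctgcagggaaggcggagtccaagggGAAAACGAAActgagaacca
IFI16: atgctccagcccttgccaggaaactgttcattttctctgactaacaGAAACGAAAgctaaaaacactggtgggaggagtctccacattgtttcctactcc
TRIM25: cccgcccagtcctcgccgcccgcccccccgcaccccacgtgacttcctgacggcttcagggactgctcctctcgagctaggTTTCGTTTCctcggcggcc
MAVS: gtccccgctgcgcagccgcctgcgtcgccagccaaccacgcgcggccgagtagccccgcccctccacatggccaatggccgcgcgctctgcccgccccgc

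GAAANNGAAA was found in IFIH1 and EIF2AK2, 2 of the 6 genes with an entry, and in 3.57% of all 35116 promoters of the table. In IFIH1 a match begins 21 bases before the start, and 2 overlapping matches on the opposite strand begin 159 and 153 bases before it. The match of EIF2AK2 begins 6 bases before the start and runs into the transcribed part. GAAANGAAA was found in RIGI (203 bases before the start), in IFI16 (54 bases before its second start) and in TRIM25 (opposite strand, 3 bases before the start), and in 3.12% of all promoters. Neither spacing overlapped the other in these genes, and neither lay in the window of MAVS or in that of the first IFI16 start, which says only that these letters are not there. DHX58, ZBP1, CGAS and STING1 were not matched.

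**Figure D1:**
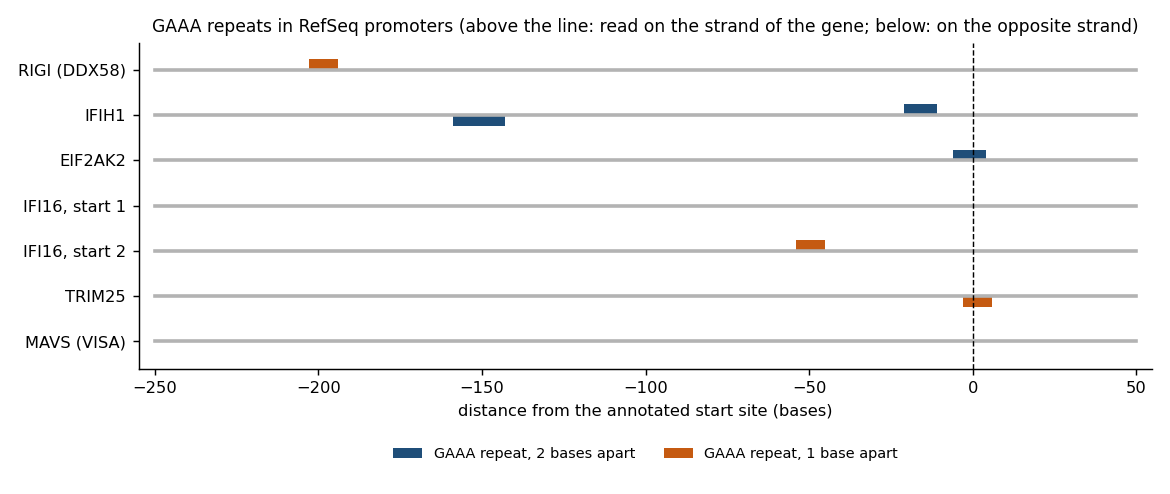
Positions of GAAA repeats (blue, 2 bases apart; orange, 1 base apart) along the 7 promoter windows of 6 sensor genes, in bases from the annotated start (dashed line). Repeats lie in 5 of the 7 windows, with none for MAVS and the first IFI16 start, and those of EIF2AK2 and TRIM25 span the start.

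Of the 10 sensor genes, the RNA helicases RIGI and IFIH1, the kinase EIF2AK2 and the DNA sensor IFI16 were at least 1.5-fold higher in each doxycycline library than in the 0 h library, and IFI16 was the single gene to pass the test. That makes 4 of 10 at all 3 times, where 1.41% of all 19088 genes did so. Since the genes were chosen with earlier results of these data known, such shares are a description and not independent support. DHX58 joined them at 96 h, giving 4, 4 and 5 of 10 at 16, 48 and 96 h, against 2.73%, 2.77% and 3.4% of all genes, and 0 of 10 were at least 1.5-fold lower (0.55%, 1.06% and 2.19%). Bulk RNA cannot tell more RNA per cell from a larger share of cells with the RNA. The median difference of the 10 genes was 0.30, 0.36 and 0.63 at the 3 times, where that of all genes was -0.01, -0.02 and -0.02. TRIM25, MAVS, CGAS, STING1 and ZBP1 stayed within 1.5-fold of 0 h at every time. The 3 comparisons share the 0 h library, so a value that is low there alone counts at each time, and 0 h was the lowest of the 4 libraries for 8 of the 10 genes and for 26.5% of all genes.

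The test was limma with Benjamini-Hochberg adjustment, the 3 doxycycline libraries against the 0 h library, over the 11453 genes above the filter, which kept 8 sensor genes and left out STING1 and ZBP1. RIGI passed the filter only through the doxycycline libraries, since its 0 h value of 4.89 lies below it. In this test 1 of the 8 was called higher (1.23% of genes tested) and 0 lower (0.0786%), and 4 reached an unadjusted p under 0.05, all 4 higher, where 10.2% of genes did so upward and 5.11% downward. The spread in the test is that between the 3 times, so a gene with unequal values at the 3 times has a larger error, and since separate cultures are not stated, its p-values measure only how these libraries vary.

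**Figure D2:**
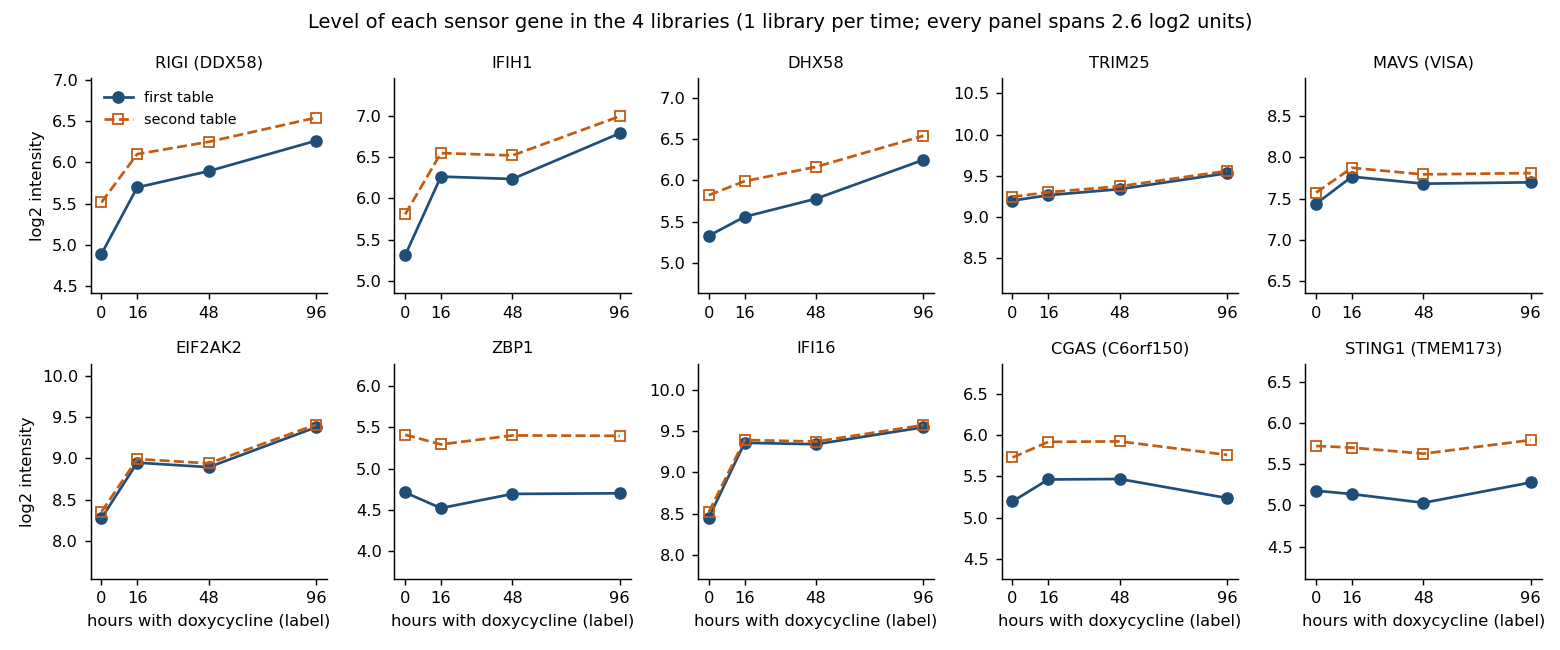
Log2 intensity of each sensor gene against labelled hours with doxycycline, in the first deposited table (circles) and the second (squares), 1 library per time, with every panel spanning the same height. IFI16, EIF2AK2 and IFIH1 lie higher from 16 h on, RIGI and DHX58 are highest at 96 h with the libraries in label order, and ZBP1 and STING1 stay within 0.25 log2 units over the 4 libraries of the first table.

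RIGI, the helicase known as RIG-I that recognises short RNA with a 5′ triphosphate, had log2 values of 4.89, 5.70, 5.89 and 6.26 at 0, 16, 48 and 96 h. The 4 libraries stood in the order of their labels, which was the case for 5.38% of all genes. RIGI was thereby 1.75-fold, 2.0-fold and 2.59-fold higher at the 3 times, over a 0 h value below the filter, and 69 of the 11453 genes tested had a larger difference at 96 h. Over the doxycycline libraries it was higher by 1.06 ± 0.21 (SE), with a limma adjusted p of 0.0563, just short of the threshold. The limma adjusted p was 0.0341 without the 16 h library, 0.00496 without that of 48 h and 0.0150 without that of 96 h, each past it, but 0.112 with median centring and 0.151 after a correction for genomic span. In the second table, which has a higher floor, the difference at 96 h was 1.03 in place of 1.37.

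IFIH1 encodes MDA5, the sensor of long double-stranded RNA. Its values were 5.31, 6.26, 6.24 and 6.79 at 0, 16, 48 and 96 h, so that 0 h was low, 16 and 48 h lay close together and 96 h was high. The folds over 0 h were 1.94, 1.90 and 2.79, and 50 genes tested had a larger difference at 96 h. The limma difference of 1.12 ± 0.22 (SE) had an adjusted p of 0.0563 and so missed the threshold as RIGI did, while the limma adjusted p was 0.0510 without the 16 h library, 0.00132 without that of 48 h, 0.0110 without that of 96 h, 0.110 with median centring and 0.134 after the span correction. Among the sensor genes tested, RIGI and IFIH1 were the pair with the most similar profile, at a Euclidean distance of 0.18 over the 4 values centred on the mean of each gene.

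DHX58 encodes LGP2, a relative of both that has the helicase but lacks the signalling domains and tunes their activity. Its values lay highest late, with 5.33, 5.56, 5.78 and 6.25 in the 4 libraries, again in label order. It was 1.17-fold, 1.37-fold and 1.89-fold higher than at 0 h, and 219 genes tested differed more at 96 h. By 16 h it had covered 25.0% of its log2 difference at 96 h, where RIGI had covered 58.8%, EIF2AK2 61.1%, IFIH1 64.5% and IFI16 82.8%. Its limma difference was 0.53 ± 0.24 (SE), with an adjusted p of 0.340.

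TRIM25, a ubiquitin ligase that helps to activate RIG-I, and MAVS, the mitochondrial adaptor below RIG-I and MDA5, moved little. TRIM25 had 9.20, 9.27, 9.34 and 9.53 in the 4 libraries, in label order, and was 1.26-fold higher at 96 h. MAVS had 7.44, 7.77, 7.68 and 7.70, with 0 h lowest and the doxycycline libraries within 0.08 of each other. Their limma differences were 0.18 ± 0.16 and 0.28 ± 0.14 (SE), with adjusted p of 0.648 and 0.392. The small difference of TRIM25 at 16 h, 0.07, turned to -0.04 when each library was centred on its median.

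EIF2AK2 encodes PKR, the kinase that halts translation by phosphorylating eIF2α when it binds double-stranded RNA. Its values were 8.28, 8.95, 8.89 and 9.38 at 0, 16, 48 and 96 h, well clear of the dim end of the array in all libraries. It was 1.59-fold, 1.54-fold and 2.15-fold higher than at 0 h, with the same low, level and high shape as IFIH1. Limma gave 0.80 ± 0.20 (SE) and an adjusted p of 0.106, which was 0.0848 without the 16 h library, 0.0235 without that of 48 h, 0.0452 without that of 96 h, 0.170 with median centring and 0.198 after the span correction. ZBP1, a sensor of Z-form nucleic acid that starts necroptosis, had 4.71, 4.52, 4.69 and 4.70, was below the filter and was not tested.

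IFI16, a nuclear and cytosolic DNA sensor of the PYHIN family, rose. It had 8.45 at 0 h and 9.36, 9.34 and 9.55 at 16, 48 and 96 h, so the doxycycline libraries lay within 0.21 of each other and the 0 h library stood well below them. It was 1.88-fold, 1.85-fold and 2.14-fold higher at the 3 times, and 1.95-fold higher on average (0.97 ± 0.15 SE, limma with Benjamini-Hochberg, adjusted p = 0.0294). The size hardly depended on the setting, but the adjusted p was 0.0508 with quantile scaling, 0.0503 with loess scaling, 0.0688 with median centring, 0.0538 without the filter and 0.0842 after a correction for genomic span, each of which ends the call. Over all 12 alternatives it ran from 0.00614 to 0.0842.

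CGAS, the enzyme that detects DNA and makes cyclic GMP-AMP, had 5.20, 5.46, 5.47 and 5.24 at 0, 16, 48 and 96 h. It lay higher at 16 and 48 h, by 0.27 at each, and was back within 0.04 of its 0 h value at 96 h, with a limma adjusted p of 0.616 for 0.19 ± 0.16 (SE). STING1, the receptor of that dinucleotide on the endoplasmic reticulum, had 5.18, 5.14, 5.03 and 5.28. Its mean of 5.16 lies just under the filter of 5.18, so it was not tested, and that of CGAS, 5.34, just above it. The DNA route thus had IFI16 higher and its enzyme and adaptor at dim, nearly level values, at which a small change may not be detectable.

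**Figure D3:**
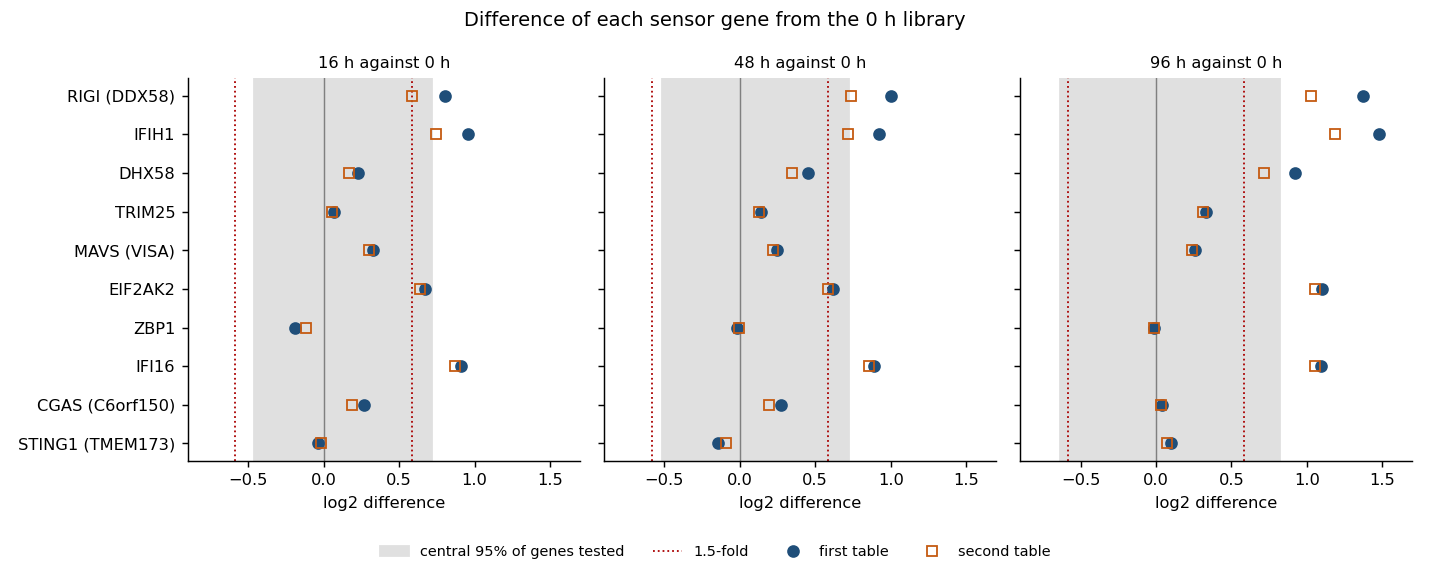
Log2 difference of each sensor gene from the 0 h library at 16, 48 and 96 h in the first table (circles) and the second (squares). The grey band holds the central 95% of the genes tested and dotted lines mark 1.5-fold. RIGI, IFIH1 and IFI16 lie to the right of the band at all 3 times in the first table, EIF2AK2 and DHX58 at 96 h only.

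The course after 16 h was read without the 0 h library. From 16 to 96 h, DHX58 was higher by 0.69, RIGI by 0.57, IFIH1 by 0.53, EIF2AK2 by 0.43, TRIM25 by 0.27 and IFI16 by 0.19. At least a 1.5-fold difference was reached by DHX58 alone, 1 of 10 against 0.896% of all genes, and 0 of 10 fell as far (1.23%). In the second table DHX58 was at 0.55, which is short of that size, while median centring added RIGI and IFIH1. For IFIH1, EIF2AK2 and IFI16 all of it came between 48 and 96 h, with differences of 0.55, 0.48 and 0.21, after -0.03, -0.05 and -0.02 between 16 and 48 h. RIGI had 0.20 in the earlier step and 0.37 in the later, and DHX58 0.22 and 0.47. CGAS went the other way from 16 to 96 h, by -0.23.

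A limma fit of the slope over labelled hours asked whether a gene had a linear trend over the 4 libraries. A step at 16 h that is then held also gives a slope, so a steady course cannot be read from the fit. It called 0 of the 8 sensor genes tested higher and 0 lower after Benjamini-Hochberg adjustment, where it called 0.0873% of genes higher and 0.0262% lower, and 5 reached an unadjusted p under 0.05, all higher, against 5.3% of genes upward and 8.25% downward. DHX58 had the lowest adjusted p, 0.15, with a slope of 0.89 ± 0.15 (SE) log2 units per 96 h. RIGI had a slope of 1.17 ± 0.27 (limma adjusted p = 0.219) and IFIH1 of 1.20 ± 0.30 (0.223). With the times taken as equal steps, RIGI passed, which is given among the alternatives.

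**Figure D4:**
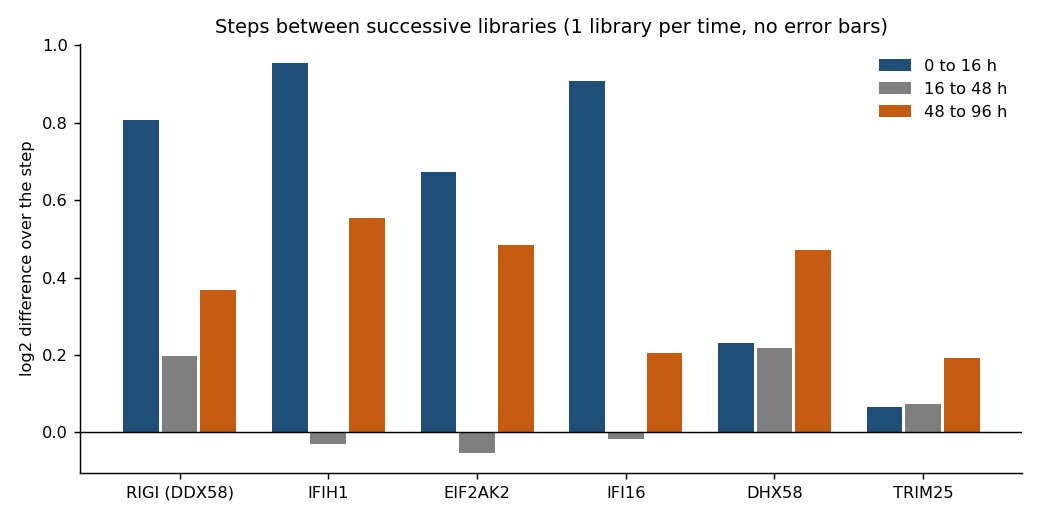
Log2 difference over each step between successive libraries for 6 sensor genes, as bars from 0, with 1 library per time and so no error bars. The first step is the largest for RIGI, IFIH1, EIF2AK2 and IFI16 and the last step the largest for DHX58 and TRIM25.

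Genes whose 4 values followed a sensor gene most closely were named by Euclidean distance over the 4 libraries, each gene centred on its mean. For RIGI these were SMAP2 (0.04), BTN3A3 (0.05) and BLNK (0.09). For IFIH1 they were UGCG (0.09), GCSAM (0.12) and BTN3A3 (0.13), so BTN3A3 stood near both. EIF2AK2 was closest to MARCHF9 (0.06), FNBP1 (0.07) and STAT2 (0.08), IFI16 to MCTP2 (0.04), DZIP3 (0.05) and DAAM1 (0.07), and DHX58 to CD83 (0.08), ABCC1 (0.09) and MYO1G (0.09). With 4 points from shared libraries such a distance is a description only. The closest gene was SLC29A2 for MAVS, XRCC4 for CGAS and GIGYF1 for TRIM25, at distances of 0.01, 0.02 and 0.02.

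Around the sensors, the signalling genes below MAVS and STING were mixed. Counts of list genes at 96 h stand beside 3.4% of all genes at least 1.5-fold higher and 2.19% lower, and limma calls against 0 h beside 1.23% of genes tested higher and 0.0786% lower. Counts at an unadjusted limma p under 0.05 stand beside 10.2% of genes tested upward and 5.11% downward. Of 24 on the array, 4 were at least 1.5-fold higher at 96 h and 1 lower, with a median of 0.06, and limma called 0 of the 23 tested in either direction (unadjusted p under 0.05 for 5 upward and 1 downward). MLKL, the executioner of necroptosis that acts below ZBP1, had 5.06, 5.97, 6.45 and 6.77 in the 4 libraries and a limma adjusted p of 0.0563, and it too entered the test only through the doxycycline libraries. IKBKE, a kinase that activates interferon regulatory factors, was 1.63-fold higher at 96 h and NFKB1, an NF-kB subunit, 1.41-fold higher, neither past a limma threshold. TBK1, the main kinase shared by both routes, had a difference of -0.43 at 96 h, and IRF3, its target, of 0.14.

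Regulators of the RNA sensors were also mixed. Of 29 on the array, 3 were at least 1.5-fold higher at 96 h and 1 lower, with a median of 0.03. Limma called 1 of 27 tested lower and 0 higher. OTUD3, a deubiquitinase, fell by 0.92 ± 0.15 (SE, adjusted p = 0.0306), a call that ended without the filter and after the span correction. The deubiquitinase USP3 was 1.67-fold higher at 96 h and LGALS3BP, a secreted glycoprotein, 1.93-fold higher, with limma adjusted p of 0.102 and 0.290.

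The list of double-stranded RNA effectors, which also holds the other eIF2α kinases EIF2AK1, EIF2AK3 and EIF2AK4, included both the largest differences and many near 0. Of 24 on the array, 6 were at least 1.5-fold higher at 96 h and 0 lower, with a median of 0.11. OAS2 and OAS1, oligoadenylate synthetases switched on by double-stranded RNA, were 6.36-fold and 3.83-fold higher at 96 h. IFIT3, an interferon-induced partner of the RNA-binding IFIT1, rose along the hours, with 5.14, 5.55, 6.13 and 7.0 in the 4 libraries and a slope of 1.83 ± 0.15 (SE, limma adjusted p = 0.0210), a call that ended without the 96 h library (adjusted p = 0.381). IFIT3 entered the test only through the doxycycline libraries, since its 0 h value lies below the filter. IFIT1, at 4.66, 5.55, 6.07 and 6.48, was below the filter at 0 h as well and passed neither test. EIF2AK3, the eIF2α kinase of the endoplasmic reticulum and a relative of PKR, rose 2.10-fold on average (1.07 ± 0.14 SE, limma adjusted p = 0.0173), and the call held under all 12 alternatives run. It had 8.15, 9.27, 9.19 and 9.21 in the 4 libraries, already at its full height at 16 h, whereas EIF2AK1 and EIF2AK4 differed by 0.14 and 0.21 at 96 h. In all, limma called 1 of 20 tested, EIF2AK3, higher and 0 lower against 0 h (1.23% and 0.0786% of genes tested). By slope it called 1, IFIT3, higher and 0 lower (0.0873% and 0.0262%).

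Among 31 other DNA sensing genes, the PYHIN relatives of IFI16, PYHIN1 and AIM2, had the highest differences at 96 h. PYHIN1 rose, with 5.32, 6.16, 6.29 and 6.47 in the 4 libraries (0.99 ± 0.16 SE, limma adjusted p = 0.0320), a call that ended with median centring, in the second table, without the filter and after the span correction. Its 0 h value lies just above the filter of 5.18, and in the second table its difference was 0.75. AIM2, which starts an inflammasome on DNA, was 1.99-fold, 1.51-fold and 1.97-fold higher at the 3 times (limma adjusted p = 0.0720), and MNDA was below the filter with 3.46 to 3.54. RNASEH2B, a subunit of the enzyme that removes RNA from DNA hybrids, was 1.47-fold higher at 96 h without passing. Of the 31 genes on the array, 3 were at least 1.5-fold higher at 96 h and 0 lower, with a median of 0.00, where 3.4% and 2.19% of all genes did so, and limma called 1 of 27 tested higher and 0 lower (1.23% and 0.0786% of genes tested).

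Genes of the interferon response machinery had the highest median at 96 h of the 6 lists around the sensors. Of 20 on the array, 9 were at least 1.5-fold higher at 96 h and 0 lower, with a median of 0.39, where 3.4% and 2.19% of all genes did so, and limma called 1 of 16 tested higher and 0 lower (1.23% and 0.0786% of genes tested). STAT2, which together with IRF9 binds interferon-stimulated response elements, was 2.18-fold higher at 96 h (limma adjusted p = 0.0683). USP18, a brake on the interferon receptor, had 5.03, 5.85, 5.77 and 6.15 (limma adjusted p = 0.0557) and entered the test only through the doxycycline libraries, since its 0 h value lies below the filter. IRF1 rose by 0.85 ± 0.16 (SE, adjusted p = 0.0472), with 8 of 12 alternatives ending the call. IFNB1, the interferon gene that these sensors induce, lay below the filter with 3.28, 3.18, 3.23 and 3.23. Housekeeping genes had a median of -0.10 at 96 h, with 1 of 24 at least 1.5-fold higher and 2 lower, and limma called 0 higher and 0 lower (unadjusted p under 0.05 for 1 in each direction, where 10.2% of genes tested did so upward and 5.11% downward). TFRC, the transferrin receptor, was 2.31 times lower, EMC7 1.56 times lower and B2M 1.57-fold higher at 96 h, none of them past a limma threshold.

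**Figure D5:**
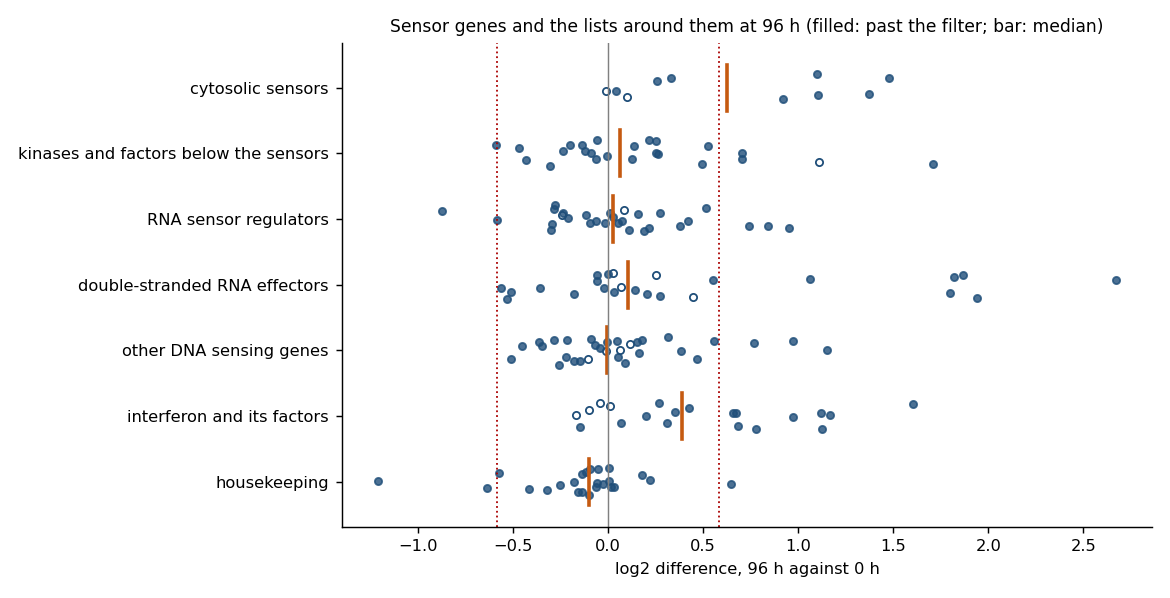
Log2 difference at 96 h against 0 h for the sensor genes and 6 lists around them, 1 point per gene on the array (filled, past the filter on low values; open, below it), with an orange bar at the median and dotted lines at 1.5-fold. The sensor genes have a median of 0.63 and the interferon machinery of 0.39, while the other lists drawn have medians between -0.10 and 0.11; the B cell markers, not drawn, have 0.61.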

How the data were processed

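Clone AB7 RNA was amplified, labelled and hybridised to 1-colour arrays, per the labels' protocols. The authors deposited log2 intensity values per probe set in a pair of tables covering the 4 libraries. That they are log2 follows from the values themselves. Array software, normalization and build: not given in the sources used here. The first table, with 33297 probe sets, gave all main values, and the second, with 28869, gave gene symbols and an alternative. Symbols were updated through RefSeq accessions (GRCh38.p14), and all 10 members matched by accession.

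For genes with several probe sets the brightest on average was used. The 11453 genes whose mean reached the 40th percentile, 5.18, entered limma 3.58.1 in R 4.3.3 (lmFit, eBayes, Benjamini-Hochberg, threshold 0.05), with 2 residual degrees of freedom, checked on simulated data. Tests asked for doxycycline against 0 h and for a slope over hours. Members and lists were chosen with earlier results of these data known. The rule for named genes takes all members, BCL6, list genes past a limma threshold, up to 3 more per list by mean difference, and the 3 genes closest to each member. Genes named outside it (TBK1, IRF3, EIF2AK1, EIF2AK4, MNDA, IFNB1, PAX5, CD79A) were chosen after their values were seen. Certain list genes are not reported here. Precision is limited by having 4 arrays, which carry no read depth.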

Additional observations from a re-analysis of the deposited data

How the results depend on the processing

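Alternatives were quantile, loess and median scaling, the second table, no filter or one at the 60th percentile, the mean of probe sets, limma with a trended prior, equal time steps, other fold thresholds and leaving out libraries. The span correction and the slope without the 0 h library were chosen after seeing the data. Against 0 h, limma called 1 sensor gene, and 0 with quantile, loess or median scaling, without the filter and after the span correction. Leaving out a doxycycline library gave 2 to 4, from fits with 1 residual degree of freedom: 2 without 16 h (RIGI and IFI16), and 4 without 48 h and 4 without 96 h (RIGI, IFIH1, EIF2AK2 and IFI16). Of all genes tested, 1.73%, 2.1% and 2.63% were then called higher, in place of 1.23%. The slope called 0, 1 (RIGI) with equal steps (0.559% of genes tested), and 0 to 1 with a library left out (1, IFIH1, without 16 h, 0.402% of genes tested). Without the 0 h library it called 0. RIGI, among the calls of both tests here, entered them only through the doxycycline libraries, since its 0 h value lies below the filter. At a 2-fold threshold 0, 1 and 4 genes were higher at 16, 48 and 96 h in place of 4, 4 and 5. The lowest of the 4 at 96 h was IFI16 at 2.14-fold, and 133 of the 11453 genes tested had a larger difference there. With median centring or the span correction, 3 genes in place of 4 were at least 1.5-fold higher at 16 h and at 48 h. For 96 h against 16 h, 1 gene became 3 with median centring or the span correction, 0 in the second table, 4 at 1.3-fold and 0 at 2-fold. The shares of all genes at these other thresholds and settings were not counted, so nothing is read from these fold counts about the sensor genes. Of 54 alternatives that could change the counts of sensor genes, 37 stayed within 1.5 times the main count. Slope settings that called 0, as the main fit did, are among the 37. Most alternatives for the limma count against 0 h changed it. The filter and the rule on probe sets cannot change the fold counts. The cause of these changes was not tested. No limma difference of a sensor gene changed sign. STING1 at 16 h, ZBP1 at 48 and 96 h, TRIM25 at 16 h and MAVS between 16 and 96 h changed sign in single comparisons with some settings, all at sizes under 0.2. No paired analysis was possible because each time has a single library. Signal near the floor limits RIGI, IFIH1, DHX58, CGAS, STING1 and ZBP1, and among list genes MLKL, PYHIN1, IFIT1, IFIT3 and USP18.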

Other observations

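Among genes tested that have an entry in the promoter table, 52 of 312 with GAAANNGAAA (16.7%) were at least 1.5-fold higher at 96 h than at 0 h, and 447 of 8450 without it (5.29%). For GAAANGAAA, the spacing found in RIGI, IFI16 and TRIM25, 42 of 285 genes with it (14.7%) and 457 of 8477 without it (5.39%) were. The spacing of 1 base was added after the promoters of the sensor genes had been read, and the sensor genes with a match are included in these counts. They are therefore not independent of the genes that prompted the search. These are counts over genes, which are not independent replicates, and no test was made. Whether the repeats have a part in the differences was not tested.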
